A study of Mus musculus with 10 samples.

Results

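The aminoacyl-tRNA synthetases were described in laser-captured tumour epithelium after corn oil or tamoxifen. The tumours were pancreatic ductal adenocarcinomas (PDA) of KPFSR mice, an engineered strain. The family was taken by gene symbol, with 20 cytosolic enzymes and 16 mitochondrial ones, whose symbols end in 2. All 36 were among the 15624 genes of the count table, one of them, Mars1, under its older symbol Mars, and all 36 passed the filter on low counts. The rule used gene names and no measured value.

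The 4 corn oil libraries and the 6 tamoxifen libraries came from established tumours whose epithelium was cut from frozen sections by laser capture, a method that collects marked cells under a microscope. From knowledge of the model and not from the labels, KPFSR animals of both groups carry tumour-driving alleles switched on in the pancreas by Flp recombinase, floxed Slc7a11, and a tamoxifen-activated Cre expressed in most cell types. Corn oil is the vehicle, so the comparison asks how epithelial expression differs after tamoxifen-induced deletion of Slc7a11, the cystine importer subunit. Deletion under such a Cre is not limited to the epithelium, and no tamoxifen-treated animals without floxed Slc7a11 were analysed here. The labels give no age, dose or time of treatment. Samples are not tied to animals in the labels, and replicate numbers here follow the order of deposit within a group and only name a library. A p-value here covers only the spread from sample to sample, which may be technical.

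Aminoacyl-tRNA synthetases join each amino acid to its transfer RNA, the step that gives the genetic code its meaning. One set works in the cytosol and a second, encoded by separate nuclear genes for most amino acids, works in mitochondria, while Gars and Kars each serve both compartments. Several cytosolic enzymes sit in a multisynthetase complex held together by the scaffold proteins Aimp1, Aimp2 and Eef1e1. Uncharged tRNA activates the kinase GCN2 (Eif2ak4), which raises translation of the transcription factor ATF4, and many cytosolic synthetase genes are known ATF4 targets. Cysteinyl-tRNA synthetase (Cars) uses cysteine, the amino acid that cells make from the cystine imported through Slc7a11.

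Total counts ranged from 16473902 to 36132316 in corn oil and from 6899347 (replicate 6) to 19462115 in tamoxifen. Slc7a11 lay between 23.2 and 40.1 normalised CPM in corn oil and between 5.90 and 19.3 in tamoxifen, without overlap. Normalised CPM is CPM, the read count scaled to library size, with TMM factors applied. Across genes, pairs among tamoxifen replicates 1 to 3 correlated at 0.921 to 0.963, and all other pairs of libraries at 0.878 or less. All 12 epithelial and ductal markers were detected, with sums of 17015 to 33468 normalised CPM in corn oil and 15151 to 27374 in tamoxifen. In bulk samples, fewer cells of a type and less RNA per cell cannot be told apart.

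No synthetase passed the false discovery rate (FDR) of 0.05 in the comparison of tamoxifen with corn oil. The smallest adjusted p among the 36 was 0.311 (edgeR quasi-likelihood test, Benjamini-Hochberg adjustment over 13006 genes), and 0.0384% of all tested genes passed, 0.00769% as higher after tamoxifen. Most members nevertheless had a higher estimate after tamoxifen. The log2 fold change was above 0 for 29 of 36 (80.6%), against 49.3% of all tested genes, and its median was 0.34 against -0.01. With tamoxifen replicates 1 to 3 counted as 1 sample it was above 0 for 25 of 36, and without them for 20 of 36. Members varied together by library and are not independent, and the difference from all genes was not tested. With all libraries, an unadjusted p under 0.05 was found for 4 members (11.1%), against 9.7% of all genes. All 4, Cars, Iars, Lars and Sars, were cytosolic and higher after tamoxifen, a direction in which 4.43% of all genes had such a p. No member had groups that did not overlap, against 3.23% of all genes.

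**Figure D1:**
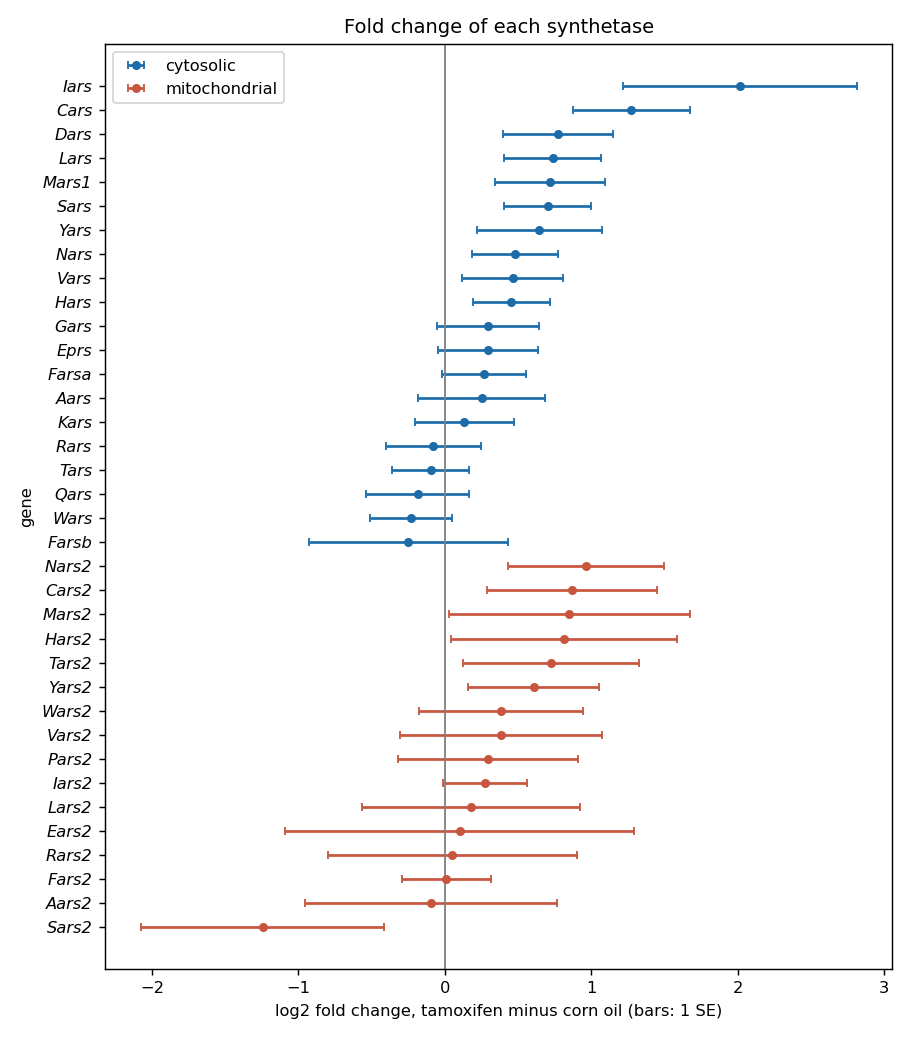
Log2 fold change of each synthetase, tamoxifen minus corn oil, with bars of 1 SE, cytosolic enzymes in blue above and mitochondrial enzymes in red below. Of the 36 estimates 29 lie above 0, from 2.01 for Iars down to -1.24 for Sars2, and the bars of the mitochondrial enzymes are wider.

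Among the cytosolic enzymes, 15 of 20 had a log2 fold change above 0, with a median of 0.38 and a range of -0.25 to 2.01. Cars had the smallest p. It stood at 50.5, 38.0, 22.8 and 59.3 normalised CPM in corn oil replicates 1 to 4, and at 86.3, 87.8, 115, 39.6, 108 and 183 in tamoxifen replicates 1 to 6. Every tamoxifen library but replicate 4 lay above the highest corn oil library, and replicate 4 fell within the corn oil range. The means were 42.7 ± 15.8 (SD, n = 4) and 103 ± 47.0 (SD, n = 6). The log2 fold change was 1.27 with an SE of 0.40, an edgeR adjusted p of 0.311 and an exact two-sided permutation p of 0.0286 for this single gene, where the smallest possible is 0.00476. Cars lies at chr7:143557230-143600090 on the minus strand of GRCm38, and 211 of its exon bases overlap the pseudogene Gm15580 on the opposite strand.

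Iars, the isoleucine enzyme and a member of the multisynthetase complex, had the largest estimate and split the tamoxifen libraries. It stood at 12.6, 7.16, 21.5 and 22.5 normalised CPM in corn oil replicates 1 to 4, and at 90.7, 98.2, 133, 8.73, 51.1 and 4.90 in tamoxifen replicates 1 to 6. Tamoxifen replicates 1, 2, 3 and 5 exceeded every corn oil library, whereas replicates 4 and 6 were as low as corn oil or lower. The log2 fold change was 2.01 with an SE of 0.80 and an edgeR adjusted p of 0.425, and the exact permutation p was 0.224. Without tamoxifen replicates 4 and 6, Iars had a log2 fold change of 2.54 and an edgeR adjusted p of 0.0404, under the FDR. In that fit 0.602% of all genes passed. Those were the libraries in which Iars was low, so leaving them out raises the estimate and that p is no test of the difference. Iars (chr13:49682100-49734267, plus strand, GRCm38) shares 1656 bases at 96.0% identity with the pseudogene Gm4849, so its reads could be split by the counting and its level is uncertain.

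Lars, the leucine enzyme of the same complex, also known as a leucine sensor upstream of mTORC1, was higher in most tamoxifen libraries. Its corn oil values were 53.9, 37.5, 81.2 and 85.2 normalised CPM, and its tamoxifen values 152, 113, 127, 110, 89.4 and 52.3. Here replicate 4 was above all corn oil libraries and replicate 6 alone was not. Lars had a log2 fold change of 0.74 with an SE of 0.33 and an edgeR adjusted p of 0.501, and the exact permutation p was 0.0762.

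Sars, the serine enzyme, which also charges the tRNA for selenocysteine, stood at 140, 79.0, 162 and 175 normalised CPM in corn oil. In tamoxifen it stood at 249, 222, 244, 120, 209 and 317. As for Cars, replicate 4 was the single tamoxifen library inside the corn oil range and replicate 6 was the highest. Its estimated log2 fold change was 0.70 with an SE of 0.30 and an edgeR adjusted p of 0.471, and the exact permutation p was 0.0524. Sars lies at chr3:108424865-108445209 on the minus strand of GRCm38.

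**Figure D2:**
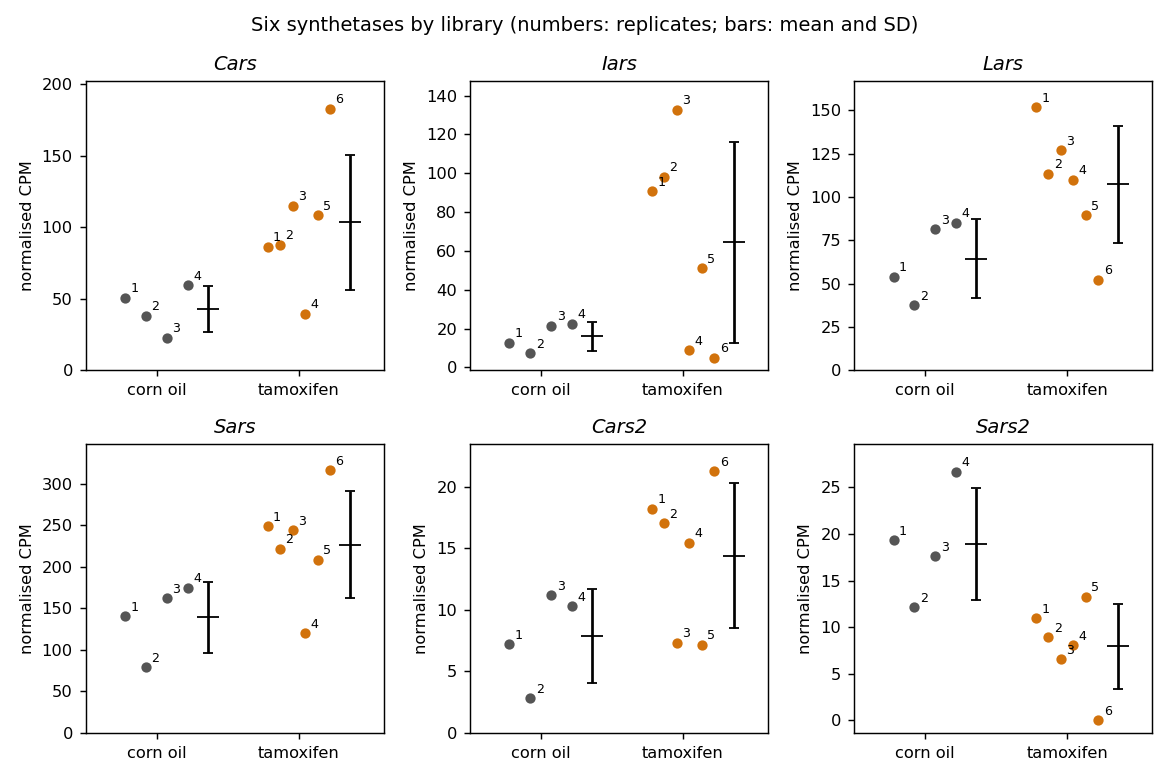
Normalised CPM of 6 synthetases in each library, corn oil in grey and tamoxifen in orange, with replicate numbers beside the points and bars for the mean and SD. In tamoxifen, Cars, Iars and Sars are low in replicate 4, Iars and Lars are low in replicate 6, and Sars2 lies below the corn oil mean of 18.9 in every library.

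The enzymes of the multisynthetase complex had a median log2 fold change of 0.51, and 6 of the 8 were above 0. After Iars and Lars, the smallest p-values belonged to Dars (aspartate, 0.77), Mars1 (methionine, 0.72), Eprs (glutamate and proline in 1 protein, 0.29) and Qars (glutamine, -0.18). Dars was at 26.1 to 126 normalised CPM in corn oil and 72.2 to 151 in tamoxifen, so the groups overlapped although all 6 tamoxifen libraries lay above the corn oil mean of 70.4. The remaining complex enzymes, Kars (lysine) and Rars (arginine), had log2 fold changes of 0.13 and -0.08. Mars1 shares 68 exon bases with Ddit3 on the opposite strand, and the library kits do not mark strand. The scaffold proteins gave -0.40 for Aimp1, 0.16 for Aimp2 and 0.46 for Eef1e1, and none had an unadjusted p under 0.05.

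Synthetases fall into 2 structural classes by the fold of their catalytic domain. Eprs, which serves glutamate and proline in 1 protein, was counted in class I alone. The 10 class I enzymes had a median log2 fold change of 0.55, with 7 above 0. An unadjusted p under 0.05 was found for 3 of them (Cars, Iars and Lars), 30.0% against 9.7% of all tested genes. The 10 class II enzymes had a median of 0.28, with 8 above 0 and 1 such p, that of Sars. Among the other class II enzymes, Dars, Hars (histidine, 0.45), Nars (asparagine, 0.48) and Farsa (a phenylalanine enzyme subunit, 0.27) came next by p. The class I enzymes after Cars, Iars and Lars were Mars1, Yars (tyrosine, 0.65), Vars (valine, 0.46) and Eprs. The difference between the classes was not tested. Hars and Hars2 share 195 exon bases on opposite strands, so their reads cannot be told apart there.

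The highest cytosolic levels per length belonged to Wars (tryptophan) and Nars, at 94.2 and 76.0 normalised CPM per kilobase of merged exons over all libraries. Wars stood at 290, 437, 318 and 381 normalised CPM in corn oil and at 283, 411, 359, 257, 366 and 145 in tamoxifen, and no tamoxifen library exceeded the highest corn oil one. Wars is known as an interferon-induced synthetase. In corn oil replicate 1, where 12 interferon response genes summed to 582 normalised CPM against 63.7 to 93.2 in the other corn oil libraries, Wars was at its lowest in that group. In tamoxifen replicate 6 the interferon sum was 22.4 normalised CPM, against 84.7 to 194 in the other tamoxifen libraries, and Wars was at its lowest of all 10 libraries. That library had the lowest total counts, and 9 of the 12 interferon genes had under 10 reads in it. It also held the lowest tamoxifen value of 8 of 20 cytosolic members. A link of Wars to interferon was not tested. Nars stood at 281, 122, 420 and 247 in corn oil and at 414, 359, 391, 313, 351 and 412 in tamoxifen, which was above the corn oil mean of 268 in all 6. Tamoxifen values of Nars were close together and corn oil values were not, with SDs of 39.4 and 123.

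By merged exons over all libraries, the lowest cytosolic levels per length were those of Aars (alanine) and Yars, at 7.70 and 8.13 normalised CPM per kilobase. In corn oil alone Iars was lowest, at 3.03, followed by Yars at 6.08. In tamoxifen alone Aars and Qars were lowest, at 8.22 and 8.99. These ranks depended on the length used. Per kilobase of longest coding transcript, Iars and Aars were lowest in corn oil (3.61 and 11.2) and Aars and Iars in tamoxifen (13.3 and 14.6). By that length Nars was above Wars in tamoxifen (136 and 107). Aars stood at 47.0, 102, 30.0 and 77.5 normalised CPM in corn oil and at 78.9, 68.7, 90.6, 116, 82.0 and 21.9 in tamoxifen. Its groups overlapped across nearly their whole range, and 1326 of its exon bases are shared with Exosc6. Yars stood at 30.0, 27.2, 34.7 and 52.5 in corn oil and at 86.8, 60.1, 81.9, 15.3, 50.2 and 44.4 in tamoxifen. Tamoxifen replicates 1, 2 and 3 exceeded corn oil for Yars, and replicate 4 was the lowest of all libraries.

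Of the 20 cytosolic enzymes, 12 are widely listed as ATF4 targets. Their median log2 fold change was 0.56, with 10 of 12 above 0. They included all 4 with an unadjusted p under 0.05 (33.3% of the list). Of all tested genes, 9.7% had such a p, and 4.43% as higher after tamoxifen. Beyond those 4, the members with the smallest p were Mars1, Nars, Yars and Eprs, while Tars (threonine) and Wars were at -0.10 and -0.23. The other 8 cytosolic enzymes had a median of 0.20, with 5 above 0 and none with such a p. By p, Dars, Hars, Vars and Farsa led them, and Farsb (the other phenylalanine subunit) was at -0.25, with 1.80 normalised CPM in tamoxifen replicate 6 against 78.1 to 129 in the other tamoxifen libraries. The lists were chosen with earlier results of these data known, so this split is no test, and the difference between these 2 lists was not tested.

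ATF4 binds composite C/EBP-ATF response elements, so the promoter windows of the members were searched for the core letters TGATGNAA on both strands. The windows, from RefSeq on GRCm38.p6, run from 250 bases before to 50 bases after the gene start, and 13 of 20 cytosolic and 14 of 16 mitochondrial genes had one. The letters occurred in 5 of the 13 cytosolic genes (38.5%) and in 0 of the 14 mitochondrial ones, against 2.93% of the 12169 genes of the count table with a window and 6 of 19 genes (31.6%) on the list of ATF4 and its other targets. The 5 genes were Yars, Gars, Aars, Iars and Tars, and the bases around 1 match in each are shown because matches to these letters, the one motif searched, occurred in cytosolic and not in mitochondrial windows. Each is written 5′ to 3′ on the strand of the gene, with the match in capitals, and a match on the opposite strand appears as its reverse complement.
Yars, chr4:129189895-129189924, plus strand: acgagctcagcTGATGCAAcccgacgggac
Gars, chr6:55037960-55037989, plus strand: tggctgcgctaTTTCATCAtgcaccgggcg
Aars, chr8:111033840-111033869, plus strand: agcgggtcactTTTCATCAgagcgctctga
Iars, chr13:49682126-49682155, plus strand: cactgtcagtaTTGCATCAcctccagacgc
Tars, chr15:11399655-11399684, minus strand: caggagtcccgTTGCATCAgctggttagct
The matches shown for Gars and Tars lie upstream of the gene in GENCODE M21, and those of Yars, Aars and Iars lie in exons. The 5 genes had log2 fold changes of 0.65 (Yars), 0.30 (Gars), 0.25 (Aars), 2.01 (Iars) and -0.10 (Tars). The window of Sars held no match, and Cars and Lars had no window. A match is a description of the letters and not of binding.

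**Figure D3:**
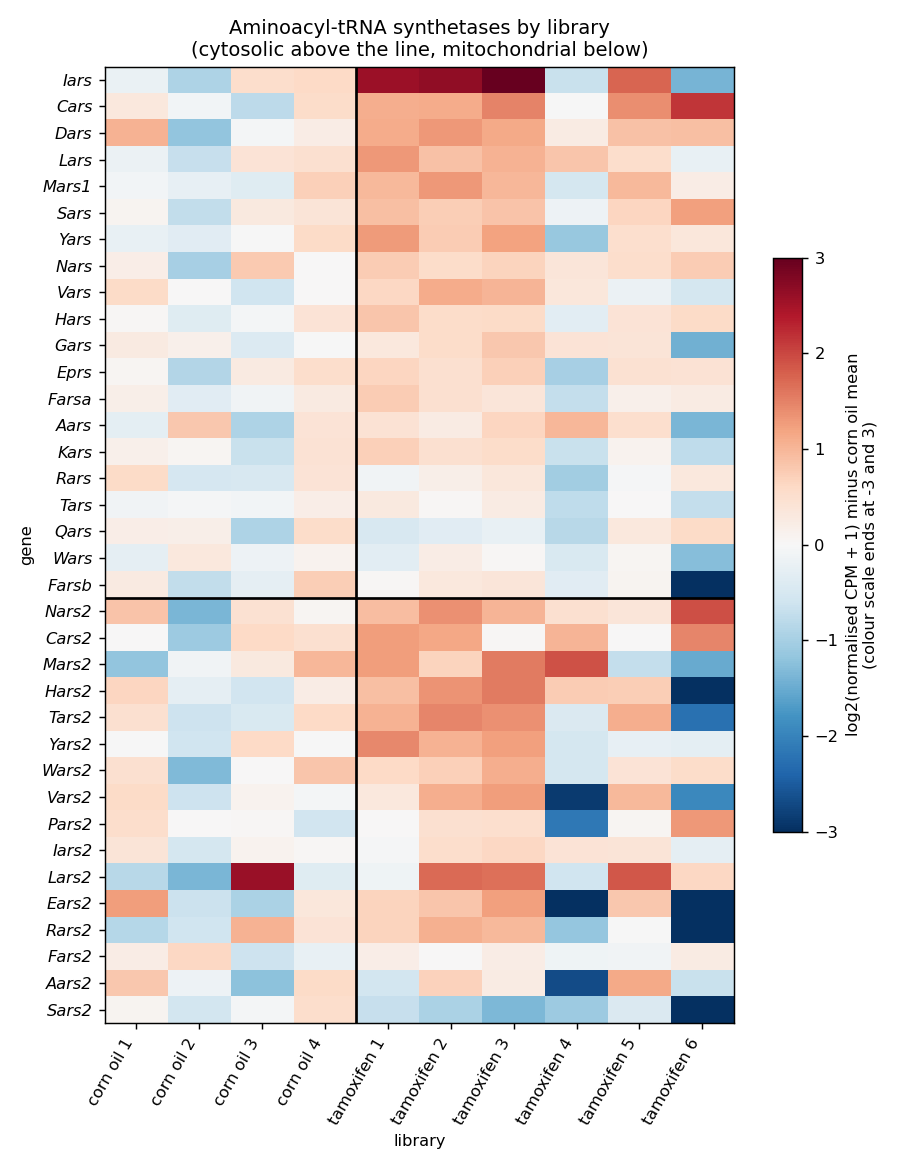
Log2(normalised CPM + 1) of each synthetase in each library minus its corn oil mean, red above and blue below 0 with the colour scale ending at -3 and 3, cytosolic enzymes above the line and mitochondrial enzymes below. Tamoxifen replicates 1, 2, 3 and 5 are mostly above 0 (29, 34, 34 and 29 of 36 members above the corn oil mean), whereas replicate 4 (11) and corn oil replicate 2 (8) are mostly below.

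Among the mitochondrial enzymes, 14 of 16 had a log2 fold change above 0, with a median of 0.34 and a range of -1.24 to 0.96. None had an unadjusted p under 0.05, and the smallest edgeR adjusted p was 0.617. Nars2 (asparagine) had the highest estimate, 0.96 with an SE of 0.53, and stood above its corn oil mean of 12.5 normalised CPM in all 6 tamoxifen libraries. By p it was followed by Cars2, Sars2, Yars2 and Tars2 (threonine, 0.73). Reads were fewer than for the cytosolic class, with a median of 387.5 per gene and library against 1913. In tamoxifen replicate 6, 5 mitochondrial members had under 10 reads (Ears2, Hars2, Mars2, Rars2 and Sars2), and in tamoxifen replicate 4, 2 had (Aars2 and Ears2). No cytosolic member had. Of all 13006 tested genes, 3359 had under 10 reads in tamoxifen replicate 6 and 1654 in replicate 4. Such low counts were thus not particular to the mitochondrial class.

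Cars2, the mitochondrial cysteine enzyme, stood at 7.20, 2.80, 11.2 and 10.3 normalised CPM in corn oil and at 18.2, 17.1, 7.34, 15.5, 7.16 and 21.2 in tamoxifen. Tamoxifen replicates 1, 2, 4 and 6 exceeded every corn oil library, and replicates 3 and 5 did not. Thus replicate 4 was low for Cars and high for Cars2. The log2 fold change of Cars2 was 0.87 with an SE of 0.58 and an edgeR adjusted p of 0.700, and the exact permutation p was 0.0952. Cars2 lies at chr8:11513977-11550783 on the minus strand of GRCm38 and shares 422 exon bases with Naxd on the opposite strand.

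Sars2, the mitochondrial serine enzyme, had an estimate of opposite sign to that of Sars, a difference that was not tested. It stood at 19.3, 12.2, 17.6 and 26.7 normalised CPM in corn oil and at 11.0, 8.93, 6.59, 8.04, 13.3 and 0 in tamoxifen. All 6 tamoxifen libraries lay below the corn oil mean of 18.9 ± 5.98 (SD, n = 4), but replicate 5 was above the lowest corn oil library. The 0 reads in tamoxifen replicate 6 allow a level of up to 0.490 normalised CPM, taking 3 counts as the limit for counting error alone. The estimate was a log2 fold change of -1.24 with an SE of 0.83 and an edgeR adjusted p of 0.701, and the exact permutation p was 0.0952. Sars2 lies at chr7:28741992-28753871 on the plus strand of GRCm38.

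Lars2, the mitochondrial leucine enzyme, had by far the highest count level of its class per length, at 175 normalised CPM per kilobase over all libraries. It stood at 518, 359, 5578 and 719 normalised CPM in corn oil and at 850, 3011, 2905, 615, 3379 and 1424 in tamoxifen. Corn oil replicate 3 was the highest of all 10 libraries, and leaving it out moved the fitted log2 fold change from 0.18 to 1.94. Yars2 (tyrosine) came second by merged exons, at 19.1 normalised CPM per kilobase. It stood at 43.7, 28.8, 66.9 and 43.7 in corn oil and at 120, 91.9, 104, 30.1, 36.6 and 35.5 in tamoxifen, so that replicates 1 to 3 exceeded corn oil and replicates 4 to 6 lay within it. By merged exons over all libraries, the lowest were Mars2 (methionine), at 0.859, and Cars2, at 1.63 normalised CPM per kilobase. The rank of Cars2 depended on the length used. Per kilobase of longest coding transcript, Cars2 was at 4.14 in corn oil and 7.58 in tamoxifen, against class medians of 7.16 and 8.14. By that length Mars2 was still lowest, followed by Wars2 in corn oil and Aars2 in tamoxifen. Mars2 stood at 1.91, 5.12, 7.05 and 12.1 normalised CPM in corn oil and at 14.7, 9.38, 18.5, 23.8, 3.03 and 1.31 in tamoxifen, with overlapping groups.

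Cytosolic synthetases had a higher median RNA level per length than mitochondrial ones in both groups, a difference that was not tested. The class medians were 16.4 and 4.34 normalised CPM per kilobase in corn oil, a ratio of 3.77, and 24.5 and 5.84 in tamoxifen, a ratio of 4.20. Over the longest coding transcript in place of merged exons, the ratios were 4.96 and 5.30. In pairs of enzymes for the same amino acid, Eprs was paired with both Ears2 and Pars2. Of 16 such pairs, 13 had the higher level per kilobase in the cytosolic member in corn oil. The exceptions were isoleucine (cytosolic over mitochondrial 0.573), tyrosine (0.418) and leucine (0.0743), and isoleucine had a ratio of 1.91 in tamoxifen. In 11 of the 16 pairs both log2 fold changes were above 0.

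**Figure D4:**
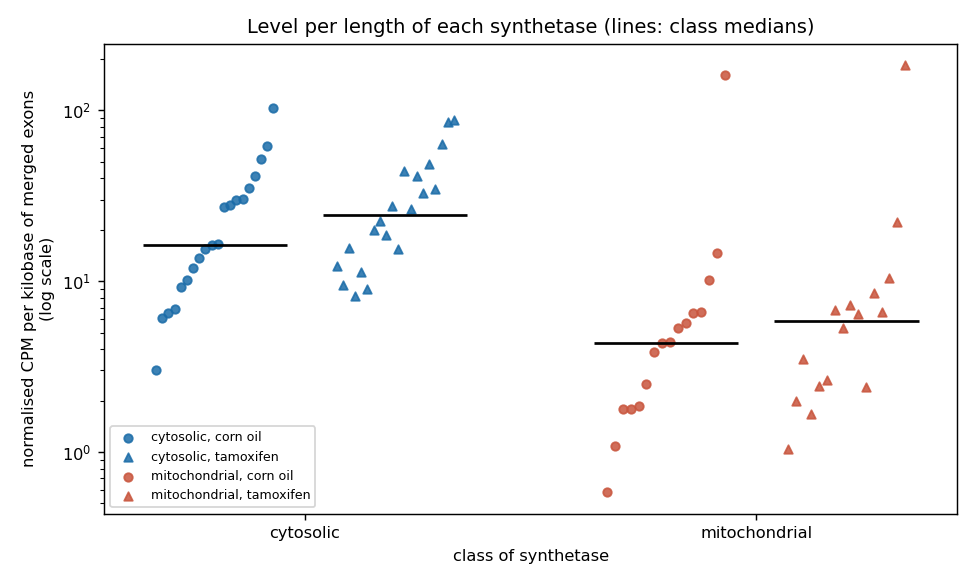
Normalised CPM per kilobase of merged exons for each synthetase, on a log scale, by class and group. The cytosolic medians (16.4 in corn oil, 24.5 in tamoxifen) lie above the mitochondrial ones (4.34 and 5.84), and Lars2 stands above all others.

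Both classes had similar median estimates, 0.38 and 0.34, but unequal precision. The median SE was 0.34 for cytosolic and 0.65 for mitochondrial members, against 0.53 for all tested genes. The median SD of log2 CPM within a group was 0.54 in corn oil and 0.59 in tamoxifen for cytosolic members, and 0.77 and 1.43 for mitochondrial ones. The difference between the classes in fold change was not tested.

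The classes varied together by library. The median log2 difference of the cytosolic members from their corn oil means was 0.12, -0.35, -0.13 and 0.42 in corn oil replicates 1 to 4, and 0.74, 0.56, 0.69, -0.40, 0.43 and 0.23 in tamoxifen replicates 1 to 6. For the mitochondrial members it was 0.45, -0.61, 0.08 and 0.30 in corn oil, and 0.68, 0.99, 1.15, -0.54, 0.41 and -0.52 in tamoxifen. Corn oil replicate 2 and tamoxifen replicate 4 were thus low in both classes and tamoxifen replicates 1 to 3 high in both, while tamoxifen replicate 6 was above 0 for cytosolic and below 0 for mitochondrial members. Over all tested genes the same median stayed between -0.21 and 0.08, and TMM scaling itself places the typical gene near 0. Without tamoxifen replicates 1 to 3, the median log2 fold change was 0.03 for the cytosolic class and -0.02 for the mitochondrial class, and 20 of 36 members were above 0. Without tamoxifen replicates 4 and 6, 33 of 36 were above 0 and 14 had an unadjusted p under 0.05, against 18.3% of all genes. Replicate 4 held the lowest tamoxifen value of 12 cytosolic and 8 mitochondrial members, and replicate 6 that of 8 and 6. Leaving out the lowest values raises such counts, so they do not test a shift.

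**Figure D5:**
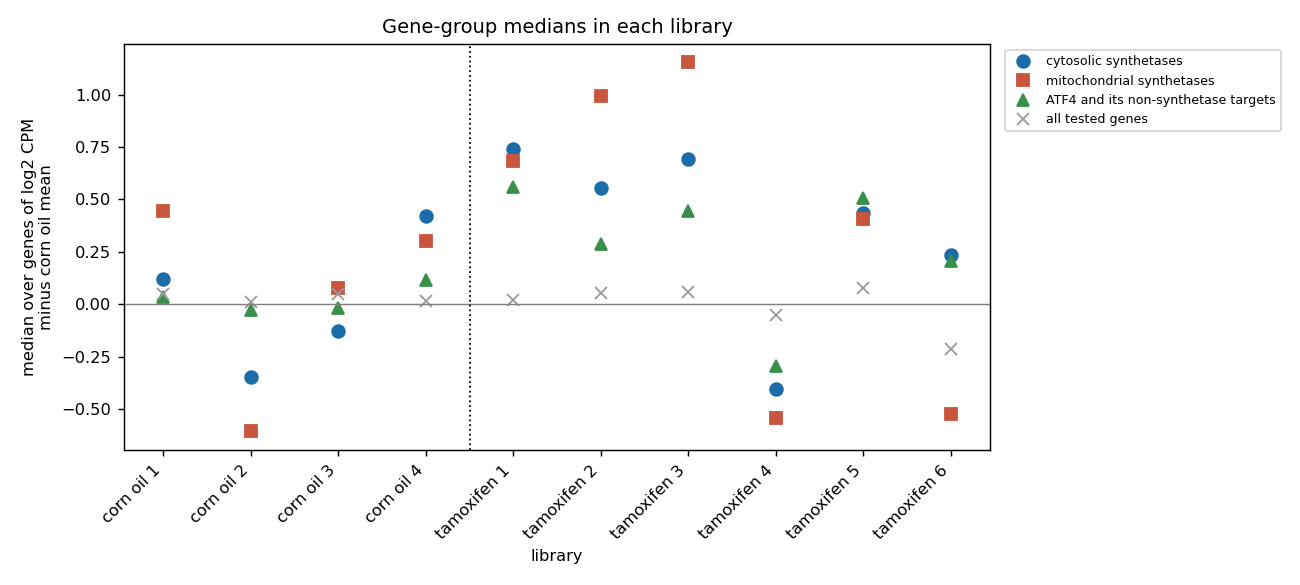
Median over genes of log2 CPM minus the corn oil mean, in each library, for cytosolic synthetases, mitochondrial synthetases, ATF4 and its other targets, and all tested genes. Both synthetase classes are high in tamoxifen replicates 1 to 3 (0.56 to 1.15) and low in tamoxifen replicate 4 and corn oil replicate 2. All tested genes stay near 0, where TMM scaling itself places the typical gene.

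Markers of fibroblasts and of epithelium also varied by library. The 10 fibroblast markers summed to 126 to 467 normalised CPM in corn oil and to 133 to 1052 in tamoxifen, with 1052 in replicate 4 and 709 in replicate 6, and all 9 tested markers had log2 fold changes above 0. Fap was at 0 in 4 libraries and Pdgfra in 2. Macrophage markers summed to 895 to 1350 in corn oil and to 813 to 2073 in tamoxifen, with 4 of 10 above 0. Of the 12 epithelial markers, 10 had log2 fold changes below 0. Their median log2 difference from the corn oil mean was -1.21, -0.65 and -0.83 in tamoxifen replicates 1 to 3, where both synthetase classes were high, and between -0.50 and 0.42 in the other 7 libraries. The part of these cells in the synthetase levels was not tested.

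Of 20 genes on the list of ATF4 and its other targets, none passed the FDR. The median log2 fold change was 0.39. An unadjusted p under 0.05 was found for 5 above 0 (25.0%, against 4.43% of all tested genes) and 1 below. In either direction the share was 30.0%, against 9.7% of all tested genes. Those above 0 were Ddit4 (1.53), an mTORC1 inhibitor, Slc7a5 (1.16), a leucine transporter, Psat1 (1.23) of serine synthesis, Cebpb (0.71) and Ddit3 (1.02), transcription factors of the stress response. The one below 0 was Slc7a11 (-1.41), the gene that tamoxifen was used to delete, which the list median includes. Atf4 itself was at 0.57 with an edgeR adjusted p of 0.638, and Asns, the asparagine synthetase and a standard ATF4 target, at -0.06. In the list median by library, tamoxifen replicate 4 was again the lowest (-0.30), and the other 5 tamoxifen libraries lay between 0.21 and 0.56.

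Among 9 GCN2 pathway genes, the median log2 fold change was 0.12 and Impact, a GCN2 inhibitor, was the one with an unadjusted p under 0.05 (1.90, edgeR adjusted p = 0.360). The 15 accessory enzymes of tRNA charging had a median of -0.12, with 5 above 0. Qrsl1, a subunit of the mitochondrial glutaminyl-tRNA amidotransferase, was at -1.32 and Prorsd1 at -0.84, both with an unadjusted p under 0.05. Prorsd1 stood at 26.5 to 30.8 normalised CPM in corn oil and at 10.1 to 23.7 in tamoxifen, without overlap. Of 5 cytosolic elongation factors, 4 were above 0, and Eef2 (0.70, edgeR adjusted p = 0.327) had an unadjusted p under 0.05. The 9 mitochondrial translation factors had a median of 0.08, and none had such a p. Of all tested genes, 9.7% had such a p.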

How the data were processed

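Values are raw counts of reads per gene, as deposited by the authors for 10 libraries. The submitters' processing notes name STAR 2.5.2b, featureCounts 1.5.0-p3, bcl2fastq 2.17 and the mm10 build. The annotation, the strand setting and the treatment of multiply mapped reads were not given in the sources used here. Per the labels' protocols, RNA was amplified with SMART-seq v4 and made into libraries with Nextera XT, which keep no strand and no molecular identifiers.

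The deposited counts were tested with edgeR 4.0.16 in R 4.3.3 (filterByExpr, TMM, quasi-likelihood F test, no covariates, Benjamini-Hochberg over 13006 genes, FDR 0.05). The procedure was tested on simulated data. SE is the absolute log2 fold change divided by the square root of F. Log2 CPM used a prior count of 2. For single members, an exact permutation test (two-sided) permuted the libraries on log2 CPM. Lengths and positions came from GENCODE M21 on GRCm38. Alternatives used DESeq2 1.42.0 and limma 3.58.1. Stretches of at least 100 bases at 95% identity were counted as similar sequence.

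The members and lists were chosen with earlier results of these data known. Named were Cars and Cars2, members with an unadjusted p under 0.05 or groups apart, the 2 highest and 2 lowest per length of each class, up to 4 more of smallest p per role list, and pathway genes with such a p. Sars2, Nars2 and Farsb were shown in more detail after their values were seen. Some results are not reported here.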

Additional observations from a re-analysis of the deposited data

Results flagged for a closer look

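Of 76 comparisons of a library with the rest of its group, 3 found a library far from the others, where chance gives about 1 in 20. Eprs stood at 78.4 normalised CPM in tamoxifen replicate 4 and at 214 to 258 in the other tamoxifen libraries. Gars stood at 58.0 in tamoxifen replicate 6 and at 200.2 to 279 in the others. Lars2 stood at 5578 in corn oil replicate 3 and at 359 to 719 in the other corn oil libraries, and no stretch of Lars2 similar to another gene was found.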

How the results depend on the processing

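Cars had an unadjusted p under 0.05 in all 19 alternatives, with a log2 fold change of 1.03 to 1.48 and an adjusted p of 0.0260 to 0.980. The count of genes past the FDR was 5, and 0 to 11 with 1 library left out, 243 by DESeq2, 1251 by voom with sample weights, 0 with tamoxifen replicates 1 to 3 counted as 1 sample or left out, 77 without tamoxifen replicates 4 and 6, and 18 at an FDR of 0.1. Synthetases past it numbered 0, but 3 by voom (Cars, Lars and Mars1, where 9.62% of all genes passed). Without tamoxifen replicates 4 and 6 it was Iars alone, which was low in both. Synthetases with an unadjusted p under 0.05 numbered 4, and 1 to 7 with 1 library left out. They numbered 15 by voom (26.9% of all genes), and 1 with tamoxifen replicates 1 to 3 counted as 1 sample or left out. Without tamoxifen replicates 4 and 6, which held the lowest tamoxifen value of most members, they numbered 14 (18.3% of all genes). Leaving out corn oil replicate 2 left 1, and leaving out tamoxifen replicate 4 or 6 gave 7 (12.1% and 12.8% of all genes), against 9.7% with all libraries. The median log2 fold change with 1 library left out was 0.33 to 0.48 for cytosolic and 0.23 to 0.53 for mitochondrial members, and 0.032 and -0.020 without tamoxifen replicates 1 to 3. The cause was not tested.

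Directions reversed in 55 values of 18 members. With 1 library left out, the ranges were -0.45 to 0.051 for Farsb, -0.041 to 0.29 for Kars, -0.41 to 0.010 for Qars, -0.23 to 0.13 for Rars, -0.19 to 0.0063 for Tars, -0.43 to 0.22 for Aars2, -0.16 to 0.73 for Ears2, -0.16 to 0.25 for Fars2, -0.16 to 1.94 for Lars2, -0.030 to 0.52 for Pars2 and -0.19 to 0.52 for Rars2. Without a change of sign, they were 0.076 to 0.48 for Eprs, 0.017 to 0.57 for Aars and 0.24 to 0.79 for Nars, where leaving out corn oil replicate 2, 3 or 4 gave each end. Without tamoxifen replicates 1 to 3, they were Farsa -0.058, Gars -0.015, Kars -0.44, Qars 0.040, Vars -0.13, Ears2 -0.98, Fars2 -0.053, Rars2 -1.28, Tars2 -0.060, Vars2 -0.42 and Yars2 -0.42. With these 3 counted as 1 sample, they were Kars -0.12, Ears2 -0.30, Fars2 -0.012 and Rars2 -0.43. By voom, they were Farsb 0.11, Rars 0.053, Tars 0.12, Wars 0.11 and Aars2 0.39. Without tamoxifen replicates 4 and 6, they were Farsb 0.10, Rars 0.016, Tars 0.14 and Aars2 0.34.

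No paired analysis was possible because the labels give no replicate numbers, and those used here only name the libraries. After the data were seen, the mitochondrial median was also taken over the 10 members with 10 or more reads in every library (0.38). Depth limits the 6 mitochondrial members with under 10 reads in some library. Groups of 4 and 6 limit the precision of all.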
